A study of Mus musculus with 3 samples.

Results

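Desmosomes are the spot-like junctions that fasten neighbouring epithelial cells to each other and to their intermediate filaments. The genes described here are 6 of their components, the plaque proteins Dsp, Jup and Pkp1 and the cadherins Dsg2, Dsc2 and Dsc3, followed through fusion of the mouse secondary palate. All probe sets that the array's gene table assigned to these symbols were taken, which gave 10 of 12422 probe sets and 6 of 8251 genes. Dsp, Pkp1, Dsg2 and Dsc2 had 2 probe sets each, and Jup and Dsc3 had 1 each.

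In a desmosome, desmogleins and desmocollins are the cadherins that span the membrane and bind across the gap between cells. Inside the cell, plakoglobin (encoded by Jup) and plakophilins bind the cadherin tails, and desmoplakin (encoded by Dsp) links this plaque to keratin filaments. In the palate, the medial edge epithelium on the tips of the shelves adheres to its opposite number to form a midline seam, which must then lose its cell contacts and disappear for the palate to become continuous.

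The 3 arrays held RNA from medial edge epithelium of CF-1 mouse embryos of stage ED13.5 (embryonic day), freed with the enzyme Dispase II. The 0 h array held unfused epithelium, for which the labels give no culture. The 12 h array held fused epithelium from shelves kept together in culture for 12 h after first contact, and the 24 h array held fused epithelium after 24 h, labelled as undergoing epithelial-mesenchymal transformation. No genetic change or agent is named for any group, and the labels do not say how many embryos were pooled. Each time point had 1 array, so no value below has a replicate error or a p-value, and fusion and culture cannot be told apart in any comparison with 0 h.

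Signals are given after each array was scaled to the same 2% trimmed mean, the factors being 0.676, 1.09 and 1.36 in order of time. A scaled signal of 13.53, the pooled 40th percentile, served as the floor under which a level was not read. Where only 1 of the 2 arrays compared was above the floor, the ratio is a bound, written "at least". The number of arrays limits the precision. The within-array yardstick is how far probe sets of 1 gene disagreed: their log2 ratios had an SD of 1.24 about the gene's mean from 0 to 12 h (672 genes), 0.82 from 12 to 24 h (687 genes) and 1.07 from 0 to 24 h (748 genes).

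The tissue label was set against marker genes of epithelium. Of 11 such markers, the 0 h and 24 h arrays each had 9 above the floor and the 12 h array 6. Of all 8251 genes, 5878, 5405 and 5742 were above the floor at 0, 12 and 24 h. A count of markers above the floor therefore does not by itself show that a cell type was present or lost. The basal keratins Krt5 and Krt14 were under it on all 3 arrays, with signals of 4.26, 10.04 and 5.15 for Krt5 and 2.64, 10.6 and 2.30 for Krt14 at 0, 12 and 24 h. The simple epithelial keratin Krt8 (102, 101 and 441) and the adhesion molecule Epcam (38.7, 265 and 77.1) were above it throughout, while the tight junction gene Cldn4 (206, 12.8 and 82.6) was under it at 12 h. Of the 9 epithelial markers with a ratio or bound, 2 were higher by 2-fold or more and 1 lower from 0 to 12 h (median log2 ratio -0.51), and 6 were higher and 2 lower from 12 to 24 h (median 2.001). Over all genes with a ratio or bound, 17.7% were higher by 2-fold or more and 27.3% lower from 0 to 12 h. From 12 to 24 h these shares were 18.8% and 12.0%. The epithelial markers had a summed signal of 719.6, 820.3 and 1143. Markers of other cell types were above the floor too. On the arrays in order of time, these were 11, 10 and 10 of 11 mesenchyme markers, 5, 7 and 6 of 7 endothelial markers, 6, 6 and 7 of 8 striated muscle markers and 5, 4 and 5 of 5 erythroid markers. Of 8 markers of macrophages and other leukocytes 5 were above it on each array, and Ptprc, the gene of the pan-leukocyte antigen, on none. The summed signal of the mesenchyme markers was 4956, 8717 and 8719, that of the endothelial markers 279.7, 531 and 553, that of the leukocyte markers 234, 669 and 614, and that of the muscle markers 660.3, 833 and 729.7. The erythroid markers summed to 6458, 1575 and 1496. A sum is led by its brightest genes, and counts of genes did not follow it in each list. From 0 to 12 h, 5 of 11 mesenchyme markers were higher by 2-fold or more and 5 lower (median log2 ratio -0.24), and 2 of 7 endothelial markers were higher and 0 lower (median 0.51). Over the same step 1 leukocyte marker was higher and 1 lower of 5 (median -0.48), 1 muscle marker was higher and 3 lower of 6 (median -0.84), and 0 erythroid markers were higher and 5 lower of 5 (median -2.11). Endothelium also makes some desmosomal proteins, and the part of non-epithelial cells in the desmosome signals was not tested. In such bulk RNA fewer cells of a type and less RNA per cell cannot be told apart.

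Of the 10 desmosome probe sets, 5 were above the floor on all 3 arrays, 1 on some and 4 on none. For scale, 4682 of 8251 genes, each taken by its brightest set, passed it at 0, 12 and 24 h alike. The first count is of probe sets and the second of genes, and a difference between them was not tested. The set of Jup was the one above the floor at 0 and 24 h but not at 12 h. The sets under the floor throughout were the only one for Dsc3 and the dimmer set of Dsp, Dsg2 and Dsc2. Pkp1 was therefore the only member with a second probe set that could be read.

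**Figure D1:**
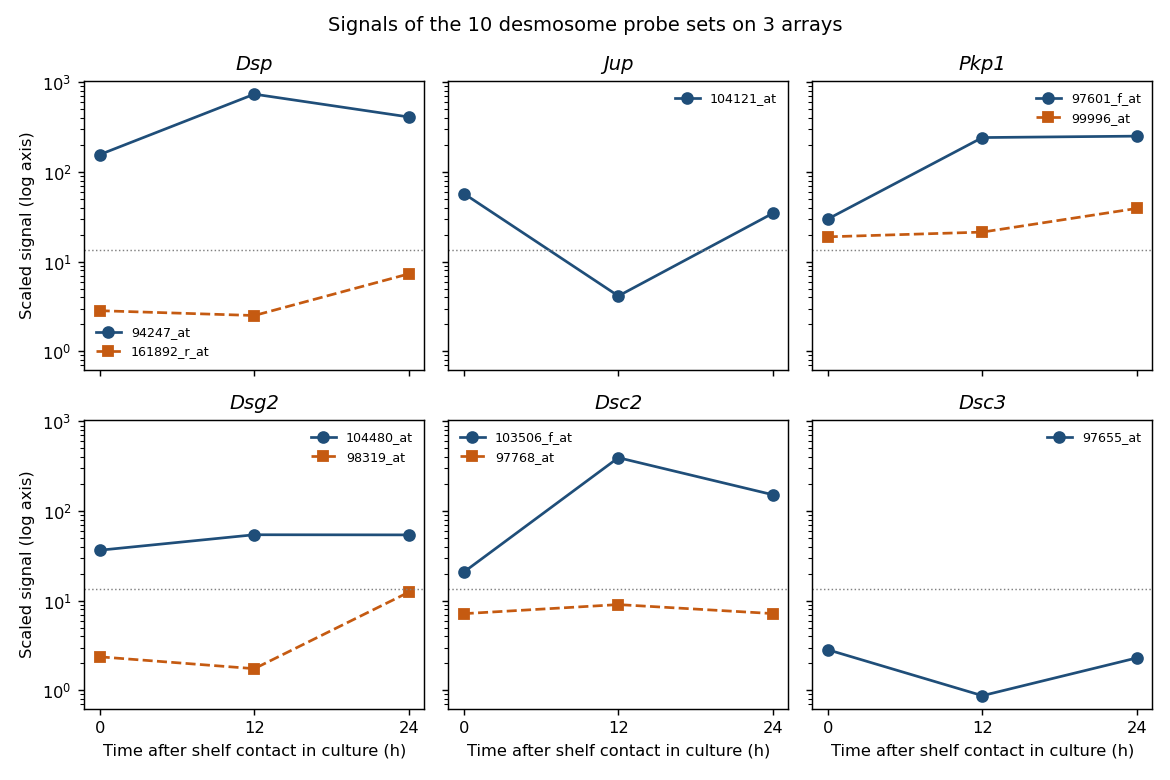
Scaled signal (log axis) of each of the 10 probe sets at 0, 12 and 24 h, 1 array per time, with the brighter set of a gene as blue circles, the dimmer as orange squares and the floor of 13.53 as a dotted line. The brighter sets of Dsp, Pkp1 and Dsc2 stand higher at 12 h than at 0 h, that of Jup falls under the floor at 12 h, and that of Dsg2 stays between 36.6 and 54.4.

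Desmoplakin RNA was highest in the fused seam at 12 h. The brighter Dsp probe set, 94247_at, gave a signal of 156 in unfused tissue, 739 after 12 h and 411 after 24 h. The 12 h array was thus the highest, and the 24 h array stood between it and the 0 h array. The ratio was 4.73-fold higher from 0 to 12 h, 1.80-fold lower from 12 to 24 h and 2.63-fold higher from 0 to 24 h. The log2 ratio from 12 to 24 h, -0.85, was close in size to the disagreement between probe sets of 1 gene (SD 0.82). It was -0.55 under quantile normalization. Relative to the rest of each array, the set was brighter than 87.3% of probe sets at 0 h, 97.2% at 12 h and 95.6% at 24 h. The direction held in the deposited values, with log2 ratios of 1.55 from 0 to 12 h and 0.39 from 0 to 24 h, the second of them short of 2-fold. The other Dsp set, 161892_r_at, whose suffix marks probes chosen under relaxed design rules, was under the floor on all 3 arrays, at 2.84, 2.51 and 7.32.

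Plakoglobin went the opposite way. Jup, whose protein serves in desmosomes and in adherens junctions alike, had a signal of 57.6 in unfused tissue, 4.14 after 12 h and 34.7 after 24 h from its single set, 104121_at. It was above 67.4% of probe sets at 0 h, 21.4% at 12 h and 58.9% at 24 h, so the 12 h array was the low one and the others lay closer together. Against the floor this was at least 4.26-fold lower from 0 to 12 h and at least 2.57-fold higher from 12 to 24 h. Between the 24 h and 0 h arrays, which both read the gene, it was 1.66-fold lower at 24 h. That log2 ratio, -0.73, was smaller than the disagreement between probe sets of 1 gene (SD 1.07). The 12 h level rests on a single probe set on a single array.

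Promoters are shown for Dsp and Jup because these were the 2 of 6 members matched in the RefSeq promoter table (build GRCm38.p6). Their 12 h ratios also lay furthest apart among members not resting on a suffix-marked probe set. Any link between promoter and ratio was not tested. The 250 bases before the annotated start are printed 5′ to 3′ on the gene's strand, chr13:38151044-38151293 (plus strand) for Dsp and chr11:100397791-100398040 (minus strand) for Jup, with matches to GGGCGG (the GC box) and CCAAT (the CCAAT box), on either strand, in capitals.
Dsp: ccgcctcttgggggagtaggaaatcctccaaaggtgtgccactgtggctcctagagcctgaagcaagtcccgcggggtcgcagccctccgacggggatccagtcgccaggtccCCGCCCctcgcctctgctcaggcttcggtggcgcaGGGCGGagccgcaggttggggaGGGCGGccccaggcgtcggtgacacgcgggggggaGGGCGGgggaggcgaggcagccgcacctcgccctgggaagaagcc
Jup: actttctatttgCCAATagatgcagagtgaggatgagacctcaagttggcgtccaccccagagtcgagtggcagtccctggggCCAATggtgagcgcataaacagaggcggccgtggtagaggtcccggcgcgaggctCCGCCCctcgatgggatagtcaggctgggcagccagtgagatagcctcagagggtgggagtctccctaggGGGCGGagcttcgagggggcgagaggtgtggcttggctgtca

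Both windows were rich in G and C, at 72.4% for Dsp and 62.0% for Jup against a median of 52.4% over 32851 promoter windows of this length. GGGCGG was found 4 times in the Dsp window and 2 times in that of Jup, and 32.7% of all windows hold it at least 1 time. CCAAT was found 2 times in the Jup window and not in that of Dsp, with 33.8% of all windows holding it. CAGGTG, an E-box of the kind that Snail-family and Zeb repressors bind, was in neither window and in 17.2% of all windows. TATAAA was likewise in neither and in 12.4% of all. These matches describe letters in a window, and no binding was measured. The searched motifs do not overlap each other in these windows.

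Plakophilin 1, which binds desmoplakin and clusters desmosomal cadherins in stratified epithelium, was read by both of its probe sets, and they disagreed in size. The brighter set, 97601_f_at, gave 29.9 at 0 h, 242 at 12 h and 251 at 24 h. The other, 99996_at, gave 18.9, 21.4 and 39.3. By the brighter set Pkp1 was low at 0 h and alike on the cultured arrays, while by the other set the 24 h array was the highest. As deposited, before scaling, the other set read 28.0, 19.6 and 29.0, so that its order of 0 h and 12 h turned with the scaling. From 0 to 12 h the ratios were 8.11-fold and 1.13-fold higher, a gap in log2 ratio of 3.02 against 0.18. From 0 to 24 h they were 8.41-fold and 2.08-fold higher, so here both sets passed 2-fold in the same direction. Between 12 h and 24 h the brighter set differed by 1.04-fold and the other was 1.84-fold higher at 24 h.

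Among the cadherins stood Dsc2, whose highest and lowest arrays had the largest ratio between them of the brighter sets of the 6 genes. Its brighter set, 103506_f_at, read 20.8 at 0 h, 394 at 12 h and 152 at 24 h. The 0 h signal was close above the floor, the 12 h signal was the highest, and the 24 h signal fell between them. Dsc2 was 18.9-fold higher from 0 to 12 h, the 3rd highest of 4904 genes measured on both arrays. It was 2.59-fold lower from 12 to 24 h and 7.30-fold higher from 0 to 24 h. The other set, 97768_at, read 7.17, 9.05 and 7.19, under the floor on all 3 arrays, so it has no ratio to compare.

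Of the brighter sets above the floor on all arrays, that of Dsg2 varied least. Dsg2, the desmoglein found in nearly all desmosome-bearing tissues, read 36.6 at 0 h, 54.4 at 12 h and 54.2 at 24 h from set 104480_at. The log2 ratios were 0.57 from 0 to 12 h, -0.01 from 12 to 24 h and 0.57 from 0 to 24 h, below the disagreement between probe sets of 1 gene in each case. The other set, 98319_at, read 2.37, 1.75 and 12.5, under the floor throughout. The direction of Dsg2 against 0 h depended on the scaling, since with values as deposited its log2 ratios were -0.12 at 12 h and -0.44 at 24 h.

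Dsc3, a desmocollin of stratified epithelium, could not be read at any time. Its only set, 97655_at, gave 2.84, 0.87 and 2.30, and it has no ratio. The RefSeq gene order places Dsc3 and Dsc1 on either side of Dsc2, in the run of desmocollin and desmoglein genes that begins next to Cdh2 and ends with Dsg2. Dsc1 was under the floor as well, at 10.3, 0.33 and 8.41. Of the 3 neighbouring desmocollin genes, only Dsc2 had a signal above the floor, and only by its _f_at set, since its plain set was under the floor as those of Dsc3 and Dsc1 were.

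**Figure D2:**
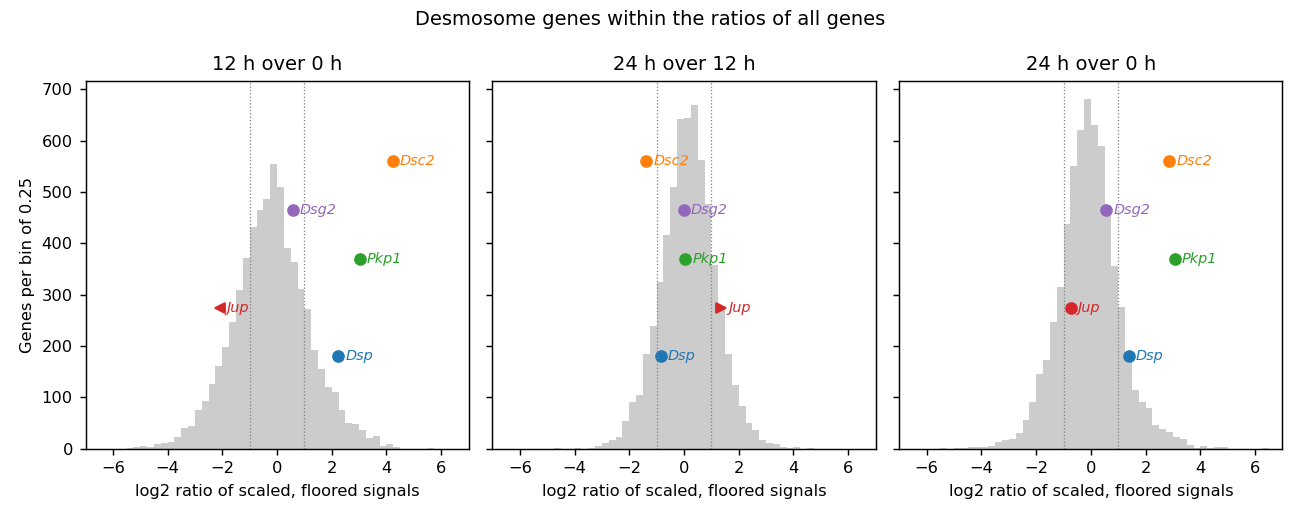
Histograms of the log2 ratio of all genes with a ratio or bound (grey, bins of 0.25), with the brighter probe set of each desmosome gene as a coloured point at its ratio and triangles for bounds; heights of points are arbitrary, and dotted lines mark 2-fold. Dsc2, Pkp1 and Dsp stand to the right and Jup to the left from 0 to 12 h, and the members lie closer to the centre from 12 to 24 h.

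From 0 to 12 h, 3 of the 5 members with a ratio or bound were higher by 2-fold or more (Dsc2, Pkp1 and Dsp) and 1 was lower by 2-fold or more (Jup). Over all 6379 genes, 17.7% were higher by 2-fold or more and 27.3% lower by 2-fold or more. The median log2 ratio was 2.24 for the 5 members and -0.21 for all genes. These 5 are the members that passed the floor, and the count and median describe them without a test. Dsc2, Pkp1, Dsp and Dsg2 were higher than 99.9%, 98.3%, 95.1% and 70.9% of the genes measured on both arrays.

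Between 12 and 24 h, 1 of 5 members was higher by 2-fold or more (Jup, as a bound) and 1 lower by 2-fold or more (Dsc2), against 18.8% and 12.0% of 6141 genes. The median over the members was -0.01 and that over all genes 0.17. Pkp1 and Dsg2 lay near the middle of all genes, above 46.3% and 44.3% of those measured, while Dsp and Dsc2 were above 16.3% and 7.35%.

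From 0 to 24 h, 3 of 5 members were higher by 2-fold or more (Pkp1, Dsc2 and Dsp) and 0 lower by 2-fold or more, against 14.5% and 17.7% of 6392 genes. The member median was 1.39 and that of all genes -0.08. This comparison shares an array with each of the others, so the 3 sets of values are not independent of each other. Pkp1 was higher than 99.2% of measured genes, Dsc2 than 98.9%, Dsp than 91.8%, Dsg2 than 74.8% and Jup than 24.4%.

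What counts as higher depended on the scaling. Of all genes at least 2-fold different from 0 to 12 h, 39.3% were higher, against 16.8% in the deposited values, 58.7% when arrays were centred on their medians and 51.1% under quantile normalization. The share from 12 to 24 h was 61.1%, against 39.4%, 42.1% and 50.9% in the same order, and from 0 to 24 h 45.0%, against 8.36%, 55.5% and 51.1%. The median log2 ratio of all genes moved with it, to -0.83, -0.12 and -0.98 in the 3 comparisons with values as deposited. Dsc2, Pkp1 and Dsp stayed higher and Jup lower from 0 to 12 h under all 4 scalings. For that comparison the log2 ratio over these scalings ran from 3.55 to 4.69 for Dsc2, from 2.33 to 3.47 for Pkp1, from 1.55 to 2.69 for Dsp and from -2.68 to -1.87 for Jup.

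**Figure D3:**
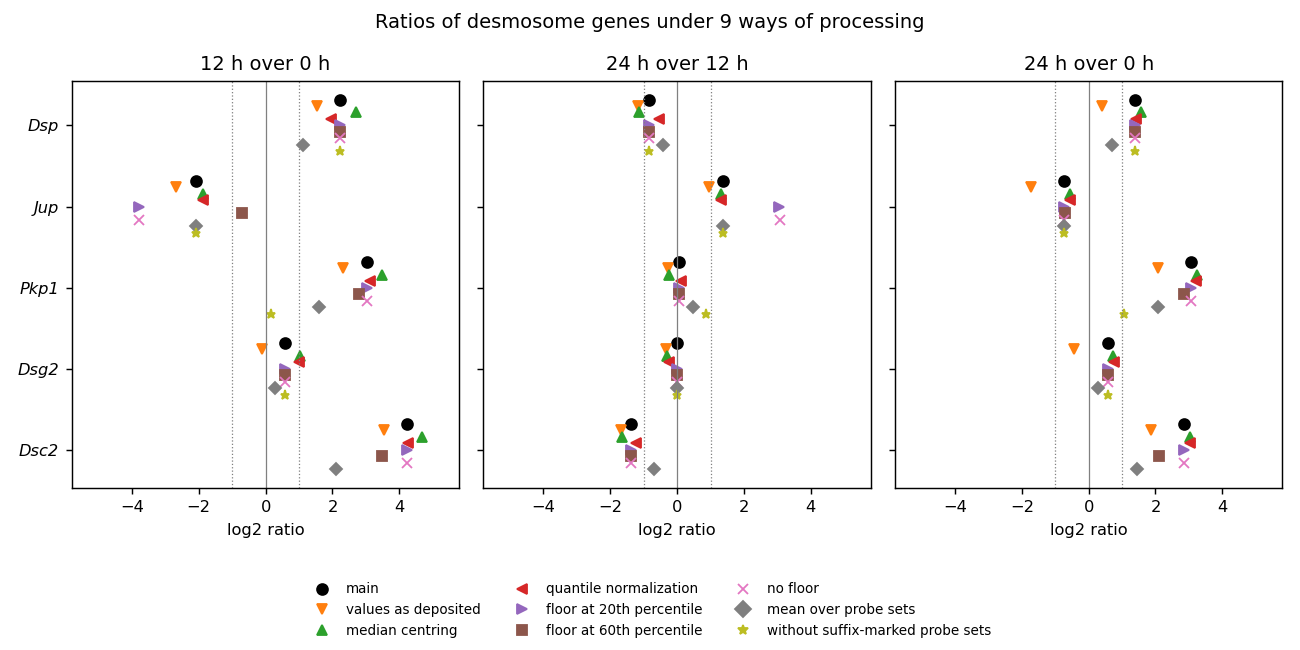
Log2 ratios of the 5 desmosome genes with a ratio, in the 3 comparisons, under the main processing (black circles) and 8 alternatives (other symbols); dotted lines mark 2-fold. From 0 to 12 h Dsp keeps a log2 ratio above 1 under each of them, while Pkp1 drops to 0.18 and Dsc2 has no point once suffix-marked probe sets are left out.

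The kind of probe set behind the values differed between members. The suffix _f_at marks sets whose probes can match a family of similar sequences. The high ratios of Dsc2 and Pkp1 came from such sets, whereas those of Dsp, Jup and Dsg2 came from sets without a suffix. Over all probe sets with a ratio or bound, those with _f_at had a median log2 ratio of 0.26 from 0 to 12 h (731 sets) and 0.32 from 0 to 24 h (726 sets). Sets without a suffix had medians of -0.29 (6819 sets) and -0.14 (6862 sets). From 0 to 12 h, 26.3% of _f_at sets and 15.8% of sets without a suffix were higher by 2-fold or more. Between 12 h and 24 h the medians were 0.03 and 0.16. Without suffix-marked sets, 1 of 4 members was higher by 2-fold or more from 0 to 12 h (Dsp), beside 16.5% of all genes. The member median was 0.37 and that of all genes -0.29. Pkp1 then had a ratio of 0.18 on the log2 scale, and Dsc2 had none.

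The arrays also differed in the 3′ to 5′ signal ratios of their control transcripts. In order of time the ratios were 0.828, 14.9 and 12.6 for Gapdh and 1.02, 11.9 and 2.97 for Actb. The positions of the desmosome probes along their transcripts were not analysed here. The part of this array difference in the disagreement between probe sets of Pkp1, or in the low signal of the other Dsc2 set, was not tested. Its part in the log2 ratios of Dsp, Jup and the other genes was not tested either.

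**Figure D4:**
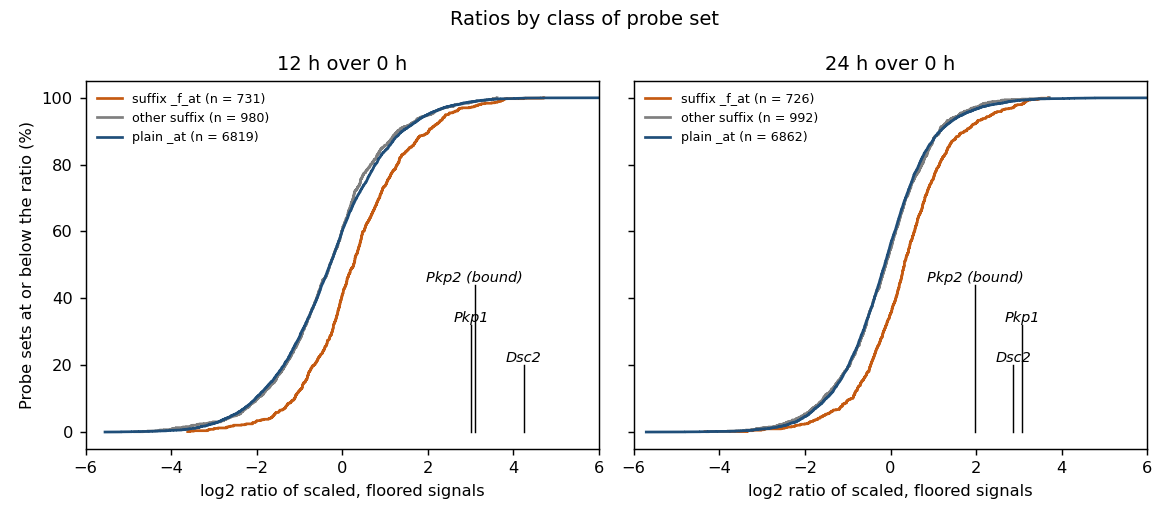
Cumulative share of probe sets (percent) at or below each log2 ratio for sets with the suffix _f_at (orange), other suffixes (grey) and none (blue), for 0 to 12 h and for 0 to 24 h, with the _f_at sets of Dsc2, Pkp1 and Pkp2 marked by vertical lines. The _f_at curve lies to the right, with a median of 0.26 against -0.29 for sets without a suffix at 12 h, and the 3 marked sets lie far above either median.

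Other desmosome and plaque genes on the array covered 7 of a list of 13, and 5 of them had a ratio or bound from 0 to 12 h. Of these, 3 were higher by 2-fold or more and 0 lower by 2-fold or more, against 17.7% and 27.3% of all genes. Perp, a tetraspan membrane protein of desmosomes and a target of p63, read 177 at 0 h, 718 at 12 h and 334 at 24 h, highest at 12 h as Dsp was. Its signal was 4.05-fold higher from 0 to 12 h and 2.15-fold lower from 12 to 24 h. Pkp4, a plakophilin relative found at adherens junctions and desmosomes, read 196, 756 and 219. Its ratios were 3.86-fold higher and then 3.46-fold lower, which left 24 h and 0 h 1.12-fold apart.

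Pkp2, the plakophilin of simple epithelia and heart, read 9.74, 115 and 53.3 from another _f_at set. It was at least 8.52-fold higher from 0 to 12 h and 2.16-fold lower from 12 to 24 h, and its other 2 sets had no ratio. The cornified-layer adhesion protein gene Cdsn (68.9, 40.03 and 59.4) and the plaque-associated periplakin gene Ppl (88.1, 74.1 and 119) were within 2-fold in each comparison. Pkp3 and Dsc1 were under the floor on all arrays. Between 12 and 24 h, 0 of 5 genes of this list were higher by 2-fold or more and 3 lower by 2-fold or more (Perp, Pkp4 and Pkp2). The shares over all genes were 18.8% and 12.0%. From 0 to 24 h, 1 gene of the list was higher by 2-fold or more, namely Pkp2, against 14.5% of all genes. The list medians were 1.95, -1.10 and 0.44. The first pair changed sign with a lower floor or none, at which 7 genes had a ratio and the medians were -0.25 and 0.57.

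Intermediate filament genes, the anchors on the cytoplasmic side, were counted next, beside the shares of all genes given above. From 0 to 12 h, 4 of 13 were higher by 2-fold or more and 1 lower by 2-fold or more, with a median of -0.01. From 12 to 24 h, 7 of 14 were higher by 2-fold or more and 1 lower by 2-fold or more, with a median of 0.90. From 0 to 24 h, 7 of 14 were higher and 0 lower, with a median of 0.93. That count depended on the processing. It was 2 higher and 1 lower with a median of 0.10 in the deposited values, and 4 higher with the mean over probe sets. In the deposited values 4.50% of all genes were higher and 49.3% lower, and with the mean over probe sets 11.2% were higher. Krt10, a keratin of differentiating layers, read 28.3, 262 and 108, highest at 12 h as Dsc2 was. Krt6a, a keratin of activated epithelium and periderm, read 157, 532 and 1163, highest at 24 h. Its other set gave a log2 ratio of -1.18 from 0 to 12 h, against 1.76 from the brighter one. Krt17 read 246, 78.9 and 381, lowest at 12 h, and Krt8 stayed level from 0 to 12 h and was 4.38-fold higher at 24 h than at 12 h.

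Adherens junction genes had 1 of 9 higher by 2-fold or more and 2 lower by 2-fold or more from 0 to 12 h and a median of -0.39. Between 12 and 24 h, 2 were higher and 2 lower, and from 0 to 24 h 1 was higher and 1 lower. The shares of all genes higher and lower were 17.7% and 27.3%, 18.8% and 12.0%, and 14.5% and 17.7% in the same order. With values as deposited, 0 adherens junction genes were higher and 5 lower in either comparison with 0 h, with medians of -1.08 and -1.05. The all-gene medians on that scale were -0.83 and -0.98. Of all genes there, 9.06% were higher and 44.8% lower from 0 to 12 h, and 4.50% and 49.3% from 0 to 24 h. Ctnnb1, which encodes beta-catenin, the closest relative of plakoglobin, read 1439.7, 3479.9 and 1347. It was highest on the array on which Jup was lowest, being 2.42-fold higher from 0 to 12 h and 2.58-fold lower from 12 to 24 h. Cdh3, or P-cadherin, was low at 12 h (113, 31.0 and 109), although its other set gave a log2 ratio of 0.35 from 0 to 12 h against -1.86. Nectin2, an immunoglobulin-like adhesion molecule, read 123, 34.6 and 194. Its other set gave log2 ratios of -1.03 from 0 to 12 h, 0.20 from 12 to 24 h and -0.83 from 0 to 24 h. The brighter set gave -1.83, 2.49 and 0.65. Cdh2, or N-cadherin, which neighbours Dsc3 in the gene order, read 76.1, 52.8 and 20.2 and was 3.77-fold lower from 0 to 24 h.

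Hemidesmosome genes, which fasten the basal cell to its matrix, had 1 of 7 higher by 2-fold or more and 2 lower by 2-fold or more from 0 to 12 h (median -0.79). The counts were 2 and 0 from 12 to 24 h (median 0.19) and 1 and 1 from 0 to 24 h (median -0.24). Of all genes, 17.7% were higher and 27.3% lower in the first comparison, 18.8% and 12.0% in the second and 14.5% and 17.7% in the third. In the deposited values 0 hemidesmosome genes were higher in either comparison with 0 h. At 12 h 6 were lower (median -1.38) and at 24 h 4 (median -1.24), beside all-gene medians of -0.83 and -0.98 on that scale. Of all genes so compared, 9.06% were higher and 44.8% lower at 12 h, and 4.50% and 49.3% at 24 h. Itgb4, the integrin subunit particular to hemidesmosomes, read 85.4, 35.2 and 46.0. Plec, which encodes the filament linker plectin, a relative of desmoplakin, read 34.7, 3.6 and 15.5. The plectin gene was therefore at least 2.56-fold lower at 12 h than at 0 h, where Dsp was higher. Lamb3, a laminin chain, read 23.5, 7.96 and 59.25, and the tetraspanin gene Cd151 read 218, 124 and 296.

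Regulators of desmosomes had 3 of 5 higher by 2-fold or more and 2 lower by 2-fold or more from 0 to 12 h. From 12 to 24 h, 0 of 5 were higher by 2-fold or more and 2 lower, and from 0 to 24 h 1 of 6 was higher and 1 lower, or 3 lower with values as deposited. Among all genes the shares higher and lower were 17.7% and 27.3%, 18.8% and 12.0%, and 14.5% and 17.7% in these comparisons after scaling. With values as deposited, 4.50% of all genes were higher and 49.3% lower from 0 to 24 h. Trp63, the transcription factor of stratified epithelia that is known to act on several desmosome genes, read 75.9, 230.05 and 67.4. It was 3.03-fold higher and then 3.41-fold lower. Prkca, the protein kinase C isoform known to loosen desmosomes when it is active, read 13.0 (under the floor), 109 and 136 and was at least 8.03-fold higher from 0 to 12 h. Adam10, a protease that cleaves cell surface cadherins, read 76.3, 340.3 and 88.1, and its other set gave a log2 ratio of -1.84 from 0 to 12 h, against 2.16. Egfr, the growth factor receptor, read 34.3, 8.29 and 25.6 and was at least 2.53-fold lower from 0 to 12 h.

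**Figure D5:**
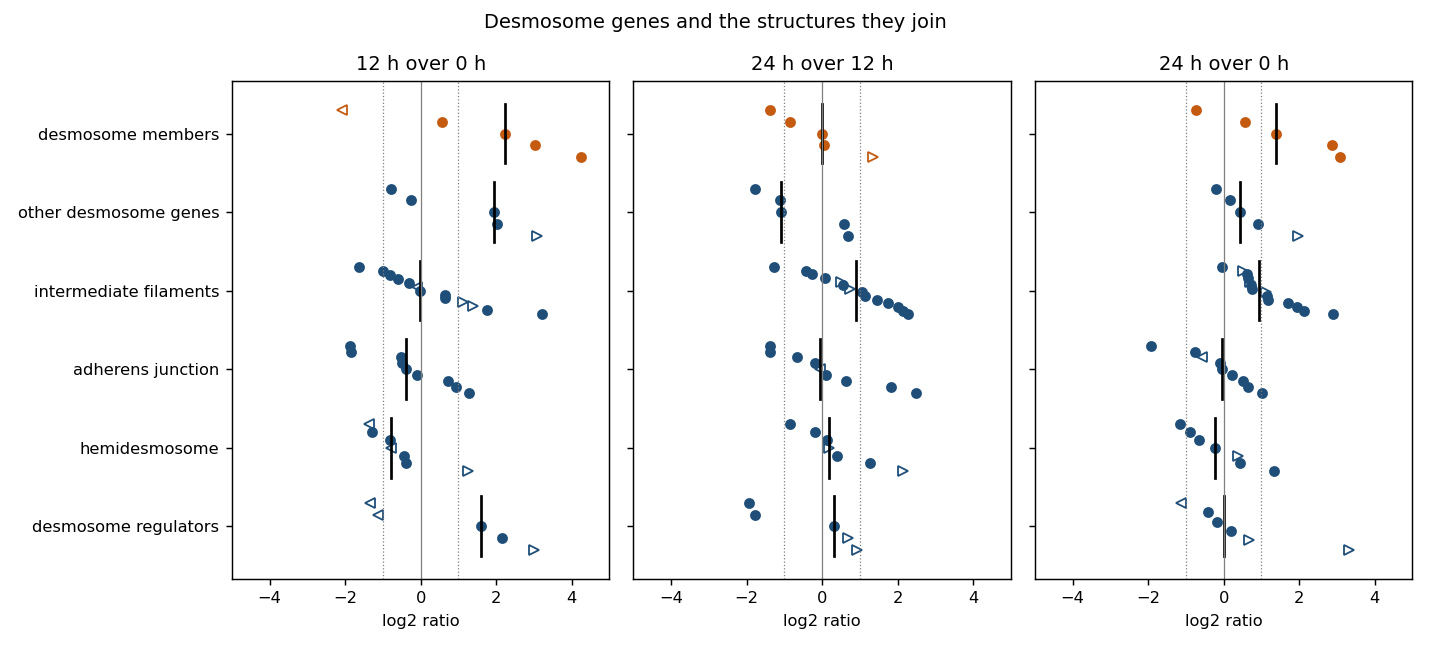
Log2 ratios of the genes of 6 lists in the 3 comparisons, each point a gene by its brightest probe set, with open triangles for bounds, black bars for list medians, dotted lines at 2-fold and the desmosome members in orange. The members spread from -2.09 to 4.24 from 0 to 12 h, and the intermediate filament genes have medians of 0.90 and 0.93 in the comparisons of 24 h with 12 h and 0 h.

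The members did not share 1 course, and for each member measured on all arrays the genes of most similar course were found. Likeness was taken as the Euclidean distance between the log2 ratios of both steps (0 to 12 h and 12 to 24 h), over 3 arrays, among 4682 genes above the floor on all of them. Of the 4 members so measured, the closest pair was Dsp and Pkp1, at a distance of 1.19, and the farthest was Dsg2 and Dsc2, at 3.92. The closest pair rests on the _f_at set of Pkp1. With its other set, a choice made after seeing the data, Pkp1 lay 0.97 from Dsg2, 2.69 from Dsp and 4.65 from Dsc2. Nearest to Dsp were Pdcd2 (0.018), Rab18 (0.034) and Utp18 (0.066). Nearest to Pkp1 were C1ra (0.108), Sumf1 (0.126) and Scamp1 (0.158), and nearest to Dsg2 Bnc1 (0.0043), Ccnj (0.015) and Apobec1 (0.022). Dsc2 had more distant neighbours, Bach1 (0.186), Tmem30a (0.213) and Slc12a2 (0.482). Over 3 arrays and so many genes such closeness is a description alone.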

How the data were processed

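The deposited values are intensities, 1 linear signal per probe set of a 1-colour Affymetrix array; per the labels' protocols, RNA was amplified with the RiboAmp kit and analysed with Microarray Suite 5.0 and GeneSpring 6.0. The labels do not say whether the authors scaled these intensities. Of 12488 probe sets, 66 controls were left out, and 10833 of the rest name 1 gene. Symbols were updated by gene identifier through a RefSeq table (GRCm38.p6; 10817 matched).

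With Python 3.11.15, numpy 2.4.6, pandas 2.3.3 and scipy 1.17.1, arrays were brought to the same 2% trimmed mean, floored at the pooled 40th percentile and taken to log2. A gene is its probe set of highest mean signal. No test was made, since each time point has a single array; genes were counted at 2-fold. The procedure was tested on simulated data.

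Named were all members, up to 4 genes of each list with the largest measured ratio, and the 3 genes nearest each member. Krt5, Krt14, Epcam, Cldn4, Ptprc, Dsc1, Pkp3 and Ppl were added after their values were seen. Members and lists were chosen with earlier results of these data known. Alternatives were 3 other scalings, a lower (20th percentile), higher (60th) or absent floor, the mean over probe sets, no suffix-marked sets and a 3-fold rule.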

Additional observations from a re-analysis of the deposited data

How the results depend on the processing

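With 1 array per time point, a change was judged against the disagreement between probe sets of 1 gene, or against 1.5 times for a count. Of 116 alternative log2 ratios of members, 105 moved by less than that, 11 by more, and 0 of those at least 2-fold changed sign. The 105 include values that a setting could not change, such as those of Dsp, Dsg2 and Jup when suffix-marked sets were left out. They also include Dsp from 0 to 12 h at 1.12 in place of 2.24 with the mean over probe sets. Dsg2, under 2-fold, changed sign against 0 h with values as deposited and was counted among the 105. Of the 11, 5 were Jup under other floors and 3 Pkp1 without suffix-marked sets. The others came with the mean over probe sets, for Dsc2 2.12 in place of 4.24 from 0 to 12 h and 1.43 in place of 2.87 from 0 to 24 h, and for Pkp1 1.60 in place of 3.02 from 0 to 12 h. Without suffix-marked sets, desmosome genes higher by 2-fold or more from 0 to 12 h numbered 1 in place of 3. The median was 0.37, and 16.5% of all genes were higher. Percentages in brackets below are shares of all genes under the same setting. Desmosome genes lower by 2-fold or more from 0 to 12 h numbered 0 in place of 1 with the floor at the 60th percentile (23.9%). They numbered 2 without a floor (30.0%), where Dsc3 was added. From 0 to 24 h, 1 gene in place of 0 was lower with values as deposited (49.3%). From 12 to 24 h, the 1 gene higher became 0 with values as deposited (12.0%) and with the floor at the 60th percentile (14.9%). It also became 0 with the 3-fold rule (7.41%), and 2 without a floor (23.1%). The 1 gene lower became 2 with values as deposited (18.5%) and after median centring (17.8%). It became 0 with the mean over probe sets (9.71%), without suffix-marked sets (12.0%) and with the 3-fold rule (4.58%). The median of other desmosome genes, 1.95 from 0 to 12 h, was 0.53 with values as deposited and -0.25 with the floor at the 20th percentile or none. Their median from 12 to 24 h, -1.10, was 0.57 with that floor or none and -0.27 without suffix-marked sets. The regulators' median was 0.16 in place of 1.60 from 0 to 12 h with the mean over probe sets, and -1.77 in place of 0.33 from 12 to 24 h with the floor at the 60th percentile, where 3 genes had a ratio. The lower floor added genes, and leaving out sets removed them. In the mean over probe sets, a set under the floor on both arrays enters with a log2 ratio of 0. A bound, such as those of Jup, moves with the floor. The cause of the remaining changes was not tested. Of 270 counts of the other lists, 191 stayed within 1.5 times. Dsc2 had no value without suffix-marked sets, nor Jup from 12 to 24 h with the floor at the 60th percentile. No paired analysis was possible because each group has 1 array.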
